A study of Aspergillus nidulans with 12 samples.

Results

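The transcriptome of the TNJ92 Δ*atfA* mutant was compared with that of the THS30 reference strain while both were under cadmium stress. RNA sequencing was carried out on mycelia of *Aspergillus nidulans*, a filamentous ascomycete. The comparison rests on 6 of the 12 libraries of the study, namely all 3 CdCl2-treated cultures of TNJ92 and all 3 of THS30, and it covers every gene of the table. THS30 carries pyrG89, AfupyrG+, pyroA4 and pyroA+, and TNJ92 carries pyrG89, AfupyrG+, pyroA4 and ΔatfA::pyroA, so both strains share the first 3 alleles. In each case submerged cultures had been grown for 16 h, CdCl2 was added to 0.2 mM, and mycelia were taken 0.5 h later. The 6 untreated libraries of the same strains, 3 of each, showed where the strain difference under CdCl2 departed from that without it. They also entered the filter on low counts and the estimate of spread behind the p values. Each genotype was represented by 1 strain with 3 biological replicates per condition, so a difference in any other locus cannot be told apart from that of *atfA*.

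AtfA is a bZIP-type transcription factor, the fungal relative of Atf1 of *Schizosaccharomyces pombe* and of human ATF2. It acts together with the mitogen-activated protein kinase SakA, the Hog1-type kinase at the end of a phosphorelay. In the phosphorelay, sensor histidine kinases pass phosphate through YpdA to the response regulators SskA and SrrA. In *A. nidulans*, AtfA is known for its part in the tolerance of conidia to oxidative and heat stress and in the expression of the conidial catalase gene *catA*.

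The CdCl2-treated libraries held 10891466 to 12159126 counts in THS30 and 12236070 to 12813268 counts in TNJ92. Of 10988 genes, 9070 passed the filter on low counts and were tested. Levels are given as CPM, read counts scaled by TMM to a common library size, which can be compared between libraries but not between genes of unequal length. Differences are log2 fold changes of TNJ92 over THS30 with their standard errors, and p values are those of the edgeR quasi-likelihood test after Benjamini-Hochberg adjustment over all genes tested. A gene is called higher or lower in TNJ92 where this p is under 0.05. Root mean square log2 distances between libraries were 0.237 to 0.355 within THS30, 0.286 to 0.356 within TNJ92 and 1.03 to 1.09 between the strains. In THS30, replicate 3 was the farthest from the other libraries.

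The deleted gene was examined first. Levels of *atfA* (AN2911) were 17.3, 19.2 and 25.4 CPM in TNJ92 and 242, 232 and 242 CPM in THS30. All TNJ92 libraries lay far below all THS30 libraries, although reads were still assigned to the locus. The log2 fold change was -3.53 ± 0.12 (adjusted p = 1.35e-13), which was close to that of untreated cultures, -3.63. The gene *pyroA* (AN7725), the marker that replaced *atfA*, encodes an enzyme of vitamin B6 synthesis. Its levels were 635, 786 and 712 CPM in TNJ92 and 128, 129.8 and 126 CPM in THS30, a log2 fold change of 2.47 ± 0.14 (adjusted p = 3.95e-10). *pyrG* was also higher, by 0.75 ± 0.11. The actin gene *act1* (0.05 ± 0.09, adjusted p = 0.633), the tubulin gene *benA* (0.18 ± 0.09, adjusted p = 0.108) and *gpdA* of glycolysis (0.15 ± 0.11, adjusted p = 0.25) did not pass the test, while the α-tubulin gene *tubC* was lower in TNJ92 by -0.57 ± 0.08.

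Of the genes tested, 55.6% differed between the strains under CdCl2. There were 2519 genes higher in TNJ92 under CdCl2 (27.8% of those tested) and 2521 lower (27.8%), while 4030 did not pass the test. Counts of called genes in the gene groups below are to be read against these shares. Most differences were small, with a median size of 0.67 on the log2 scale among called genes. Among large differences the lower genes prevailed. At 2-fold or more, 636 genes were higher (7.01%) and 914 lower (10.1%). At 4-fold or more the counts were 155 and 389, and at 8-fold or more 64 and 202. The values of the strains did not overlap for 4858 of the called genes, and this held for 62.8% of all genes tested. The 914 lower genes together took up 27219 to 32531 CPM in a TNJ92 library and 95691 to 104998 CPM in a THS30 library. The 636 higher genes took up 60689 to 65373 CPM in TNJ92 and 20933 to 21978 CPM in THS30.

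Expression level and precision went together. In the lowest of 5 equal classes of the genes by level (0.174 to 6.11 CPM) the median standard error was 0.283 and 46.3% of genes were called, against 0.0971 and 63.3% in the highest class. Differences of at least 2-fold were most frequent in the lowest class, where 20.5% of genes were lower and 10.5% higher. Genes with a symbol in the annotation made up 11.0% of the genes tested, 7.55% of the 636 higher and 8.97% of the 914 lower genes, so most of the largest differences were in genes known by their locus tags only.

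**Figure D1:**
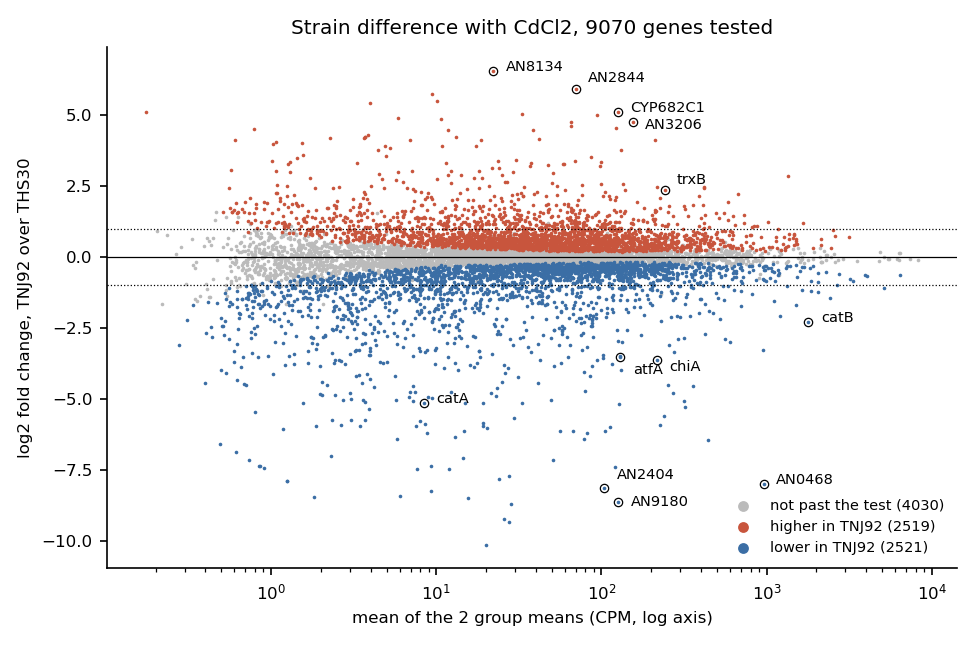
Strain difference of each of the 9070 genes tested in CdCl2-treated cultures. The x axis is the mean of both group means in CPM on a log axis, the y axis the log2 fold change of TNJ92 over THS30, and the dotted lines mark 2-fold. Red points are the 2519 genes higher in TNJ92, blue points the 2521 lower and grey points the 4030 that did not pass the test. The cloud reaches further down than up: 202 genes were lower and 64 higher by at least 8-fold.

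Among the genes with the largest decreases was AN0468, whose levels were 8.17, 6.79 and 7.36 CPM in TNJ92 and 1974, 1810.5 and 1937 CPM in THS30. It was thus strongly transcribed in THS30 only, and 256-fold lower in TNJ92 (adjusted p = 1.37e-16). AN9180, a putative transketolase gene, had 0.520, 0.840 and 0.526 CPM in TNJ92 and 252, 245 and 262 CPM in THS30 (-8.63 ± 0.14, adjusted p = 2.32e-17). AN2404 encodes a protein similar to nonribosomal peptide synthetases, the large enzymes that build peptides without a ribosome. Its levels were 0.594, 0.916 and 0.676 CPM in TNJ92 and 179, 194 and 246 CPM in THS30 (-8.13 ± 0.21, adjusted p = 2.25e-14). In all 3 genes the strains were far apart. In untreated cultures the log2 fold changes of AN0468, AN9180 and AN2404 were larger still, at -8.80, -10.05 and -9.21. The interaction was called for AN0468 (0.80 ± 0.19, adjusted p = 0.00499) but not for AN2404 (1.08 ± 0.52, adjusted p = 0.139).

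The opposite pattern was seen for AN8134, with 42.6, 42.8 and 46.1 CPM in TNJ92 and 0.348, 0.473 and 0.541 CPM in THS30 (6.56 ± 0.20, adjusted p = 4.22e-14). AN2844 had 104, 127 and 182 CPM in TNJ92 and 2.26, 1.58 and 2.97 CPM in THS30 (5.93 ± 0.29, adjusted p = 1.20e-08). In this gene the TNJ92 replicates spread more than in the others, but stayed far above THS30. The cytochrome P450 gene *CYP682C1* (AN6787) had 239.6, 250.1 and 243 CPM in TNJ92 and 6.86, 7.73 and 6.49 CPM in THS30 (5.11 ± 0.19, adjusted p = 2.26e-11). AN8609 and AN3206 were also among the genes with large increases, at 5.01 ± 0.14 and 4.74 ± 0.10. The largest changes were named only from genes without overlap between the strains, which held for 62.8% of all genes tested.

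In 29 genes a mean of under 0.5 CPM in 1 strain stood against at least 10 CPM in the other under CdCl2. The silent strain was TNJ92 for 25 of them and THS30 for 4. All 29 differed in the same direction in untreated cultures. An interaction with CdCl2 was called for 4 of them, against 26.7% of all genes tested. Its standard errors were large in such genes, for example 0.44 for AN2319 and 1.40 for AN11161. An interaction that was not called thus does not mean an equal difference in both conditions. Raw counts show how few reads were left. AN5017 had 0, 1 and 0 counts in TNJ92 and 513, 459 and 438 in THS30, which gives a ratio of 1593 (95% interval 286 to 62983). AN6274 had 1, 1 and 1 counts against 576, 677 and 696, a ratio of 734 (251 to 3563). For AN7989 the ratio was 678 (232 to 3289). These exact intervals cover counting error only, and the fitted fold changes of such genes depend on the prior count. For AN7116, AN10325 and AN9343, counts were low in untreated THS30 as well. AN7116 had 1, 1 and 1 counts in treated TNJ92, 381, 449 and 268 in treated THS30 and 25, 36 and 34 in untreated THS30. AN10325 had 4, 1 and 3, then 329, 435 and 264, and then 12, 28 and 31 counts in these groups. AN9343 had 6, 3 and 8, then 150, 170 and 146, and then 23, 45 and 22 counts. These 3 genes thus had more counts in every CdCl2-treated than in any untreated THS30 library, and few counts in TNJ92.

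The upstream phosphorelay was examined next. Of 20 genes tested in the phosphorelay group of the study, 12 were lower in TNJ92 under CdCl2 and 1 was higher (*srrC*, 0.37 ± 0.14, adjusted p = 0.0347), with a median of -0.51 against 0.00 for all genes tested. The call of *srrC* was lost without THS30 replicate 2 or 3 or without TNJ92 replicate 1 or 2. The histidine kinase gene *tcsB*, the relative of the yeast osmosensor gene SLN1, had 69.5, 70.8 and 73.5 CPM in TNJ92 and 231, 231 and 270.0 CPM in THS30 (-1.77 ± 0.10, adjusted p = 1.30e-10). The histidine kinase gene *hk-8-3* was similarly affected, with 50.4, 45.4 and 49.5 CPM against 174, 159 and 173 CPM (-1.80 ± 0.08, adjusted p = 1.09e-11). For *hk-8-2* the levels were 101, 95.3 and 94.5 CPM in TNJ92 and 279, 284 and 329 CPM in THS30 (-1.62 ± 0.11, adjusted p = 1.04e-09). The strains did not overlap in any of these 3 kinase genes, nor in 62.8% of all genes tested. For *hk-8-2* the strain difference was larger in untreated cultures, at -3.12 (interaction 1.51 ± 0.15, adjusted p = 2.98e-06). The same was found for *hk-8-1*, a further kinase gene, which was at -2.47 untreated and -0.75 ± 0.11 with CdCl2 (interaction 1.72 ± 0.16, adjusted p = 1.97e-06). It also held for *tcsB*, at -2.39 untreated (interaction 0.61 ± 0.14, adjusted p = 0.00362). In the whole group, 18 of 20 genes were lower untreated (median -0.79), against 29.6% of all genes. The interaction was called for 11 of them (55.0%, against 26.7% of all genes).

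The SakA cascade was counted separately, although it shares *tcsB*, *ypdA* and *sskA* with the phosphorelay group. Of its 8 genes, 3 were lower (37.5%, against 27.8% of all genes), none was higher and 5 did not pass the test. The 3 lower genes were *tcsB*, *pbs2* and *atfA* itself, whose call follows from the deletion, so no excess is read from this share. The kinase gene *sakA* had 224, 227 and 202 CPM in TNJ92 and 234, 232 and 272 CPM in THS30. These values lay close together, at -0.18 ± 0.10 (adjusted p = 0.155). Without CdCl2 *sakA* was lower in TNJ92 by -1.27 ± 0.10, and the interaction was 1.10 ± 0.15 (adjusted p = 4.72e-05). The kinase kinase gene *pbs2* was lower by -0.28 ± 0.09 (adjusted p = 0.0152), a call that was lost without THS30 replicate 3, TNJ92 replicate 1 or TNJ92 replicate 2. The response regulator gene *sskA* had -0.51 ± 0.20 (adjusted p = 0.053), *ypdA* 0.26 ± 0.12 (adjusted p = 0.0736) and the kinase gene *sskB* -0.20 ± 0.09 (adjusted p = 0.0826). These 3 values sat close to the threshold. *sskA* was called lower in 8 of the alternatives, among them DESeq2, library totals, the 6 CdCl2 libraries alone and the replicate block. *ypdA* was called higher in 4, among them the replicate block and the fits without THS30 replicate 1 or TNJ92 replicate 3. Without TNJ92 replicate 3, both were called.

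**Figure D2:**
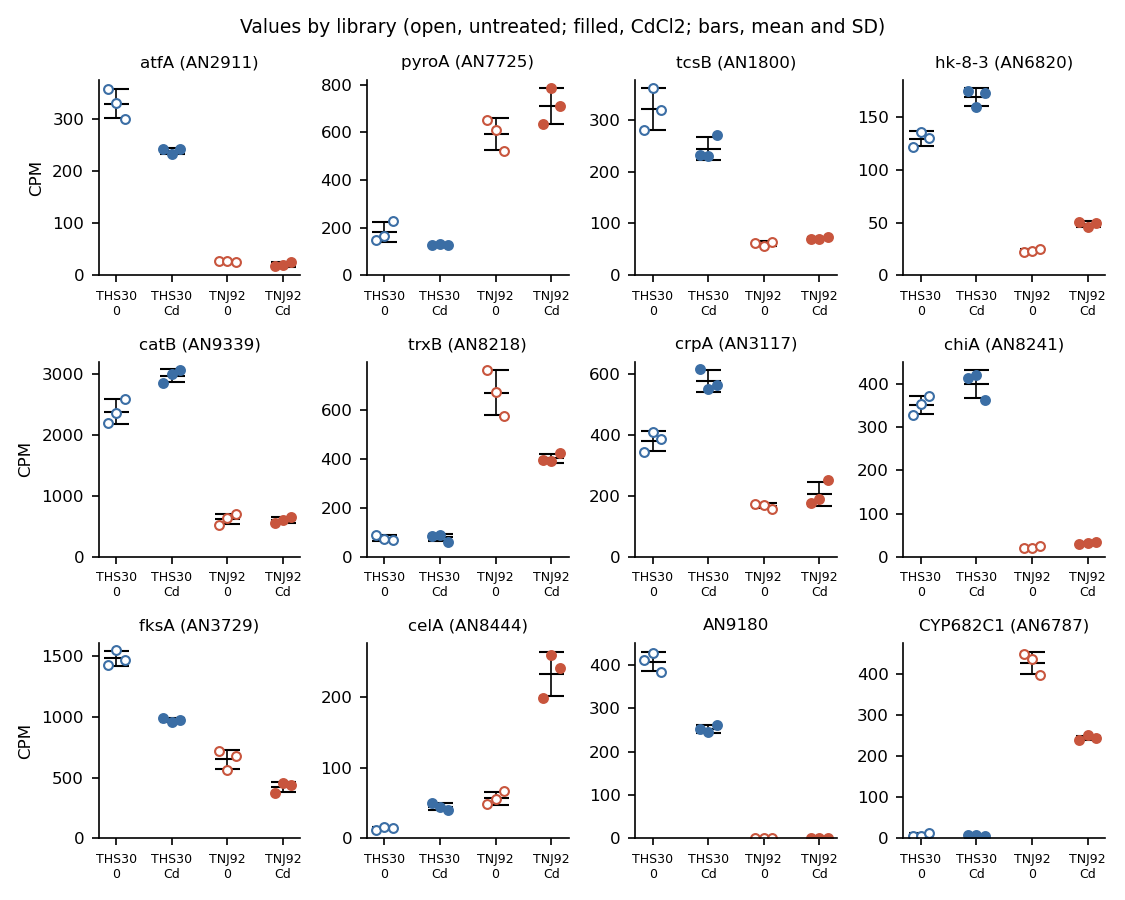
Level of 12 genes in each of the 12 libraries, in CPM, with open symbols for untreated and filled symbols for CdCl2-treated cultures and with bars for the mean and SD of 3 replicates. In every panel the filled symbols of TNJ92 and THS30 stand apart, from *atfA* at 17.3 to 25.4 against 232 to 242 CPM to *celA* at 198 to 259 against 39.7 to 50.1 CPM. The genes were picked with results of these data known, so this gap is a description only.

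Among antioxidative enzymes both directions were found. Of 35 genes tested, 16 were higher (45.7%) and 11 lower (31.4%) in TNJ92, against 27.8% of all genes in each direction. At least 2-fold differences were seen in 5 and 6 of them. The catalases, which break down hydrogen peroxide, were mostly lower, 3 of 5 genes. The hyphal catalase gene *catB* had 554, 604 and 659 CPM in TNJ92 and 2852, 3001 and 3064 CPM in THS30 (-2.29 ± 0.12, adjusted p = 4.61e-11). The conidial catalase gene *catA* had 0.223, 0.534 and 0.601 CPM in TNJ92 and 12.5, 14.4 and 22.1 CPM in THS30 (-5.14 ± 0.35, adjusted p = 4.62e-09). The catalase-peroxidase gene *cpeA* was lower by -1.78 ± 0.16, with 3.86 to 5.04 CPM against 15 to 15.8 CPM. Only *catC* went the other way among the 5, with 46.3, 48.4 and 49.3 CPM in TNJ92 and 14.8, 18.9 and 17.7 CPM in THS30 (1.48 ± 0.11, adjusted p = 3.85e-09). The remaining one, AN8553, was at -0.25 ± 0.17 (adjusted p = 0.209). Per kilobase of transcript, *catB* was the main catalase transcript of either strain under CdCl2, with mean RPKM levels of 1360 in THS30 and 285 in TNJ92. On the same scale *catC* came next in TNJ92 (26.2 against 9.09 in THS30), *catA* was at 6.89 in THS30 and 0.196 in TNJ92, and *cpeA* at 6.51 and 1.94.

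Genes of peroxide and superoxide removal other than catalases went in both directions. AN2578, which codes for a protein with a predicted peroxidase domain, had 656, 701 and 756 CPM in TNJ92 and 131, 131 and 131 CPM in THS30 (2.42 ± 0.11, adjusted p = 4.76e-12). The peroxiredoxin gene *prxA* was higher by 0.69 ± 0.11, the Cu/Zn superoxide dismutase gene *sodA* by 0.69 ± 0.09 and the glutathione peroxidase gene *gpxA* by 0.42 ± 0.09. For *gpxA* the strain difference was -0.15 ± 0.09 without CdCl2, and the interaction was 0.57 ± 0.13 (adjusted p = 0.0029). The thioredoxin gene *trxA* was lower by -0.51 ± 0.11. Another putative cytosolic superoxide dismutase gene, AN1131, had 7.73, 5.65 and 6.38 CPM in TNJ92 and 45.7, 48.0 and 54.5 CPM in THS30, the next largest decrease of the group after *catA* (-2.90 ± 0.13, adjusted p = 5.39e-12).

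Transporters of metal ions were compared because efflux and vacuolar storage remove Cd2+ from the cytosol. *crpA*, which encodes a P-type ATPase that exports copper and cadmium, had 179, 190.0 and 253 CPM in TNJ92 and 619.7, 551 and 566 CPM in THS30 (-1.48 ± 0.12, adjusted p = 1.07e-08). *ygA*, the gene of a copper-transporting ATPase, was lower as well (-0.65 ± 0.11). Of the other 3 putative cadmium efflux genes, AN1795 (0.48 ± 0.10) and AN5633 (0.69 ± 0.16) were higher, and *zrfD* was at 0.16 ± 0.13 (adjusted p = 0.301). Of 21 P-type ATPase genes tested, 12 were lower (57.1%) and 3 higher (14.3%), against 27.8% of all genes in each direction, with a median of -0.59. The largest decreases were in AN8941 (-2.67 ± 0.25), AN5088 (-1.92 ± 0.23) and the calcium pump gene *pmcC* (-1.58 ± 0.10). The number of higher genes dropped to 1 when THS30 replicate 3, TNJ92 replicate 1 or TNJ92 replicate 2 was left out. Of 3 genes tested for glutathione-related transport, 1 was higher and 1 lower. The higher one was AN7729, with 253, 294 and 242 CPM in TNJ92 and 198, 190.1 and 155 CPM in THS30 (0.54 ± 0.10, adjusted p = 0.000334). The lower one was *hmt1*, a putative vacuolar transporter gene named after the factor that carries phytochelatin in fission yeast (-0.54 ± 0.09).

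Cysteine-rich proteins, the glutathione pathway and sulfur assimilation supply the thiol groups that bind Cd2+. Among 17 genes for cysteine-rich proteins, 5 were higher (29.4%) and 7 lower (41.2%), against 27.8% of all genes in each direction. AN11899 stood out with 382, 406 and 412 CPM in TNJ92 and 22, 21.3 and 25.8 CPM in THS30 (4.12 ± 0.13, adjusted p = 4.40e-14), and it differed as much in untreated cultures (4.25). AN8544 had the largest decrease of that group, with 42.3, 38.0 and 47.8 CPM against 121, 122 and 145 CPM (-1.60 ± 0.11, adjusted p = 3.10e-09). In cysteine, methionine and glutathione metabolism, 22 of 53 genes were higher (41.5%) and 14 lower (26.4%), with a median of 0.06. The sulfate assimilation genes did not move together. *sD*, for APS kinase, was higher (0.61 ± 0.09). *sA*, for PAPS reductase, had 164, 192 and 236 CPM in TNJ92 and 381, 376 and 439.8 CPM in THS30 (-1.01 ± 0.12, adjusted p = 1.98e-06), whereas in untreated cultures it was at -0.09 ± 0.12 (interaction -0.93 ± 0.17, adjusted p = 0.000736). *metE*, the homoserine O-acetyltransferase gene, had 160.1, 163 and 142 CPM in TNJ92 and 87.4, 82.2 and 64.7 CPM in THS30 (0.99 ± 0.11, adjusted p = 8.65e-07), again with no such difference in untreated cultures (0.05 ± 0.11, interaction 0.94 ± 0.16, adjusted p = 0.000326). The glutathione synthesis gene AN3150 was lower by -0.67 ± 0.22 (adjusted p = 0.0224), a call that was lost without THS30 replicate 2 or 3 or TNJ92 replicate 1.

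Genes of iron acquisition had the highest median among the functional lists, 0.99. Of 11 genes, 8 were higher (72.7%) and 2 lower (18.2%), against 27.8% of all genes in each direction. Siderophores are small iron chelators, of which *A. nidulans* secretes one kind and keeps another inside the hyphae. *sidH*, for a hydratase of the secreted kind, had 16, 13.8 and 15.1 CPM in TNJ92 and 3.65, 3.15 and 3.69 CPM in THS30 (2.10 ± 0.19, adjusted p = 6.16e-08). Other genes of the secreted siderophore, *sidF* (1.35 ± 0.17), *sidI* (1.26 ± 0.30) and *sidD* (0.99 ± 0.18), were higher too. For *sidI* the difference was larger without CdCl2, at 2.66 ± 0.35 (interaction -1.40 ± 0.47, adjusted p = 0.0457). The siderophore transporter gene *mirA* had 27.4, 22.7 and 21.5 CPM in TNJ92 and 11.8, 10.3 and 7.48 CPM in THS30 (1.27 ± 0.19, adjusted p = 2.04e-05). For *mirA* no such difference was found without CdCl2 (-0.10 ± 0.23, interaction 1.37 ± 0.30, adjusted p = 0.00264). The 2 lower genes were *sidC*, for the peptide synthetase of the intracellular siderophore (-0.84 ± 0.12), and *sreA*, for the GATA-type repressor of iron uptake (-0.49 ± 0.08). None of the siderophore genes was abundant, at 3.15 to 43.4 CPM for those of the secreted kind. For 44 genes of Fe-S cluster binding, 12 were higher and 13 lower, which is near the share of all genes.

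Protein folding genes of the endoplasmic reticulum and those of the cytosol went apart. In the endoplasmic reticulum list, 5 of 7 genes were higher (71.4%) and 1 was lower (14.3%), against 27.8% of all genes in each direction. *bipA*, for the lumenal Hsp70-type chaperone, had 3319.5, 3464 and 3141 CPM in TNJ92 and 1866, 1915 and 1361 CPM in THS30 (0.95 ± 0.12, adjusted p = 2.83e-06). The protein disulfide isomerase gene *tigA* (0.60 ± 0.09) and the calnexin gene *clxA* (0.47 ± 0.11) were also higher, and *hacA*, for the bZIP factor of the unfolded protein response, was higher by 0.30 ± 0.09 (adjusted p = 0.0132). The call of *hacA* was lost without THS30 replicate 1 or TNJ92 replicate 2, and the count of higher genes was then 3. Of 42 genes of transport from the endoplasmic reticulum to the Golgi, 20 were higher (47.6%, against 27.8% of all genes) and 1 was lower, but their median was only 0.25. In the list of heat shock and cytosolic chaperone genes, 4 of 7 (57.1%) were lower and none higher, though 1 was called higher without TNJ92 replicate 1. *hsp30* had 169.9, 176 and 224 CPM in TNJ92 and 469, 441 and 509.6 CPM in THS30 (-1.32 ± 0.11, adjusted p = 2.64e-08). *hsp20* was lower by -1.21 ± 0.19, and the disaggregase gene *hsp104* by -0.83 ± 0.26 (adjusted p = 0.0161), which was not called without THS30 replicate 3 or TNJ92 replicate 1.

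In ribosome biogenesis the strain difference depended on the treatment. Under CdCl2 the 185 genes of this group had a median of -0.05, with 33 higher (17.8%) and 45 lower (24.3%). The share of all genes was 27.8% in each direction, and only 4 of the 185 differed by 2-fold or more. In untreated cultures the same genes had a median of 0.83, with 167 higher and 1 lower in TNJ92. The interaction was called for 150 of them (81.1%, against 26.7% of all genes tested). AN6200, the putative relative of yeast Rrp12p, a factor of ribosomal subunit export, had 43.3, 52.4 and 54.7 CPM in TNJ92 and 89.0, 98.7 and 89.3 CPM in THS30. It was thus lower with CdCl2 (-0.88 ± 0.12) and higher without it (0.73 ± 0.12), with an interaction of -1.61 ± 0.17 (adjusted p = 4.68e-06). AN6310, which encodes a putative ATPase of rRNA processing, had 23.0, 27.9 and 24.6 CPM against 57, 57.2 and 50.5 CPM (-1.13 ± 0.10, adjusted p = 6.55e-08) and -0.01 ± 0.10 without CdCl2. Among the genes that were higher in TNJ92, *dspC* had 39.2, 39.7 and 33.6 CPM against 15.7, 15.9 and 15 CPM (1.27 ± 0.12, adjusted p = 7.88e-08), and 0.54 ± 0.13 without CdCl2. AN10348 was higher to a similar degree with and without CdCl2, at 1.15 ± 0.12 and 1.02 ± 0.11 (interaction 0.13 ± 0.16, adjusted p = 0.619).

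**Figure D3:**
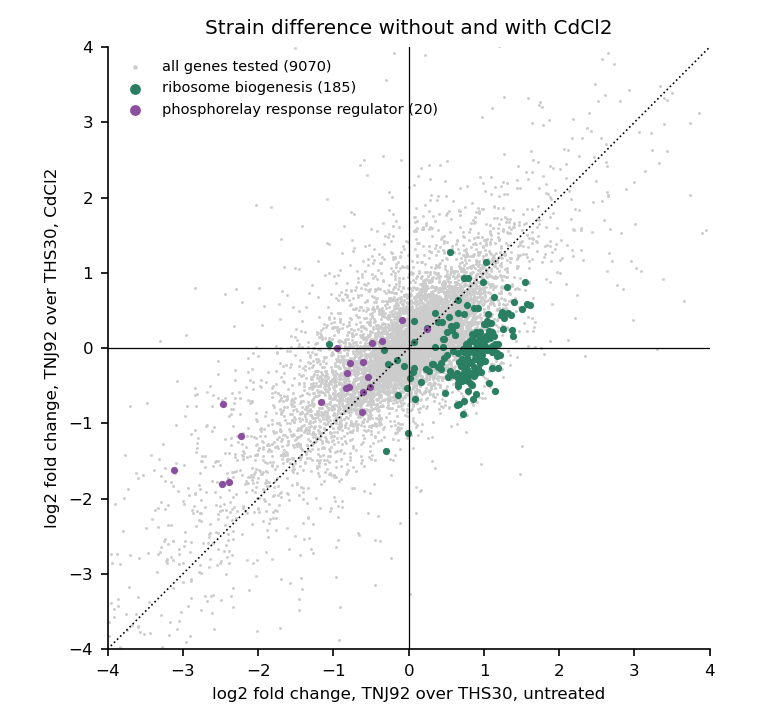
Log2 fold change of TNJ92 over THS30 in untreated cultures (x axis) against that in CdCl2-treated cultures (y axis), which share no library. Grey points are the genes tested, of which 210 lie outside the drawn range of 4 log2 units, green points the 185 ribosome biogenesis genes and purple points the 20 phosphorelay genes. The green cloud lies to the right of the diagonal, at a median of 0.83 without and -0.05 with CdCl2, and the purple points lie mostly in the lower left.

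Of 82 DNA repair genes, 28 were lower (34.1%) and 14 higher (17.1%) in the mutant under CdCl2, at a median of -0.09. Of all genes, 27.8% were called in each direction. Without TNJ92 replicate 1 or 2 the count of higher genes was 9. In the subgroup of excision repair, 14 of 27 were lower and 3 higher (median -0.31), while in untreated cultures 6 were lower and 6 higher (median 0.15). The count of lower genes was 9 without THS30 replicate 2 or TNJ92 replicate 3. *rad7*, named after a yeast factor of nucleotide excision repair, had 17.5, 17.6 and 17.8 CPM in TNJ92 and 36.6, 34.5 and 29.6 CPM in THS30 (-0.93 ± 0.13, adjusted p = 1.20e-05). AN11853, whose relatives bind mismatched DNA, was lower by -0.94 ± 0.11.

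In carbon metabolism, glycolysis and the glyoxylate pathway differed in their balance. Of 20 glycolytic genes tested, 9 were higher and 2 lower (1 lower without THS30 replicate 3, TNJ92 replicate 2 or TNJ92 replicate 3), and without CdCl2 their median was -0.22 in place of 0.09. The hexokinase gene *hxkA* had 549, 519 and 509 CPM in TNJ92 and 240.0, 247 and 259 CPM in THS30 (1.08 ± 0.08, adjusted p = 4.12e-09). The lactate dehydrogenase gene *ldhA* was higher by 1.53 ± 0.17 at a low level, 8.32 to 10.1 CPM against 2.69 to 3.55 CPM. *pfkZ*, annotated as a phosphofructokinase gene, was lower by -0.92 ± 0.11. Of 9 glyoxylate pathway genes, 5 were lower (55.6%) and 1 higher (11.1%), and none was higher without THS30 replicate 1 or TNJ92 replicate 3. The malate synthase gene *acuE* had 46.1, 37.2 and 38.1 CPM in TNJ92 and 76.6, 94.7 and 148 CPM in THS30 (-1.40 ± 0.38, adjusted p = 0.0123). THS30 replicate 3 was the highest library for *acuE*, and the call was lost without it. The formate dehydrogenase gene *aciA* (-1.24 ± 0.13) and the methylcitrate synthase gene *mcsA* (-1.25 ± 0.16) were called lower as well, and so was the aconitase gene *acoA* (-0.98 ± 0.18).

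Nitrogen and osmolyte metabolism held further single differences. The NADP-dependent glutamate dehydrogenase gene *gdhA*, which assimilates ammonium, had 1448, 1426 and 1414 CPM in TNJ92 and 517, 529.6 and 771 CPM in THS30 (1.24 ± 0.14, adjusted p = 1.19e-06). *gfdB*, for a glycerol 3-phosphate dehydrogenase of osmolyte synthesis, had 1.34 to 1.53 CPM in TNJ92 and 13.4 to 15.7 CPM in THS30 (-3.31 ± 0.22, adjusted p = 9.55e-10). In contrast, the glycerol dehydrogenase gene *gldB* was higher by 0.63 ± 0.12, although it was lower without CdCl2 (-0.35 ± 0.11). Of the 7 genes of trehalose, glycerol and mannitol, 2 were higher and 3 lower with CdCl2 (28.6% and 42.9%, against 27.8% of all genes in either direction). Without CdCl2, 6 were lower (against 29.6% of all genes), and the interaction was called for 6 (against 26.7%). Sterol synthesis showed no common direction, with 5 higher (31.25%) and 4 lower (25.0%) of 16 genes, near the 27.8% of all genes. Only 2 were lower when THS30 replicate 3, TNJ92 replicate 1 or TNJ92 replicate 2 was left out.

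Genes of the cell wall were more often lower than higher. Of 35 biosynthetic genes tested, 16 were lower (45.7%) and 6 higher (17.1%), against 27.8% of all genes in each direction. The count of lower genes was 10 without TNJ92 replicate 1. *fksA*, for the catalytic subunit of β-1,3-glucan synthase, had 376, 452 and 439 CPM in TNJ92 and 994, 961 and 971 CPM in THS30 (-1.21 ± 0.10, adjusted p = 3.47e-08), and the glucanosyltransferase gene *gelA* was lower by -0.83 ± 0.10. *agsA*, for an α-1,3-glucan synthase, had 2.75, 4.43 and 5.11 CPM against 13.9, 16.6 and 15.6 CPM (-1.91 ± 0.33, adjusted p = 0.000326), with 0.16 ± 0.32 in untreated cultures. *celA*, for a mixed-linkage glucan synthase, differed in the opposite way, with 198, 259 and 239.9 CPM in TNJ92 and 50.1, 44.3 and 39.7 CPM in THS30 (2.37 ± 0.14, adjusted p = 6.49e-10). The chitin synthase gene *chsC* was higher by 1.40 ± 0.35 (adjusted p = 0.00728). Of 14 genes of chitin synthesis, 7 were lower and 3 higher, but the count of lower genes was 3 or 4 without TNJ92 replicate 1 or THS30 replicate 2.

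Among the 18 chitin hydrolysis genes tested, 9 were lower and 3 higher, with a median of -0.53. The class III chitinase gene *chiA* had 29.3, 31.8 and 35.1 CPM in TNJ92 and 415, 422 and 364 CPM in THS30 (-3.64 ± 0.11, adjusted p = 1.90e-14). *chiB*, for the chitinase of autolysing cultures, was higher by 0.57 ± 0.11. In the cell wall integrity pathway, 4 of 8 genes were lower and none was higher, among them the sensor gene *wscA* (-0.81 ± 0.09) and the kinase gene *mpkA* (-0.63 ± 0.10). *wscA* had 588, 639.6 and 655 CPM in TNJ92 and 1036, 1104 and 1158 CPM in THS30.

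**Figure D4:**
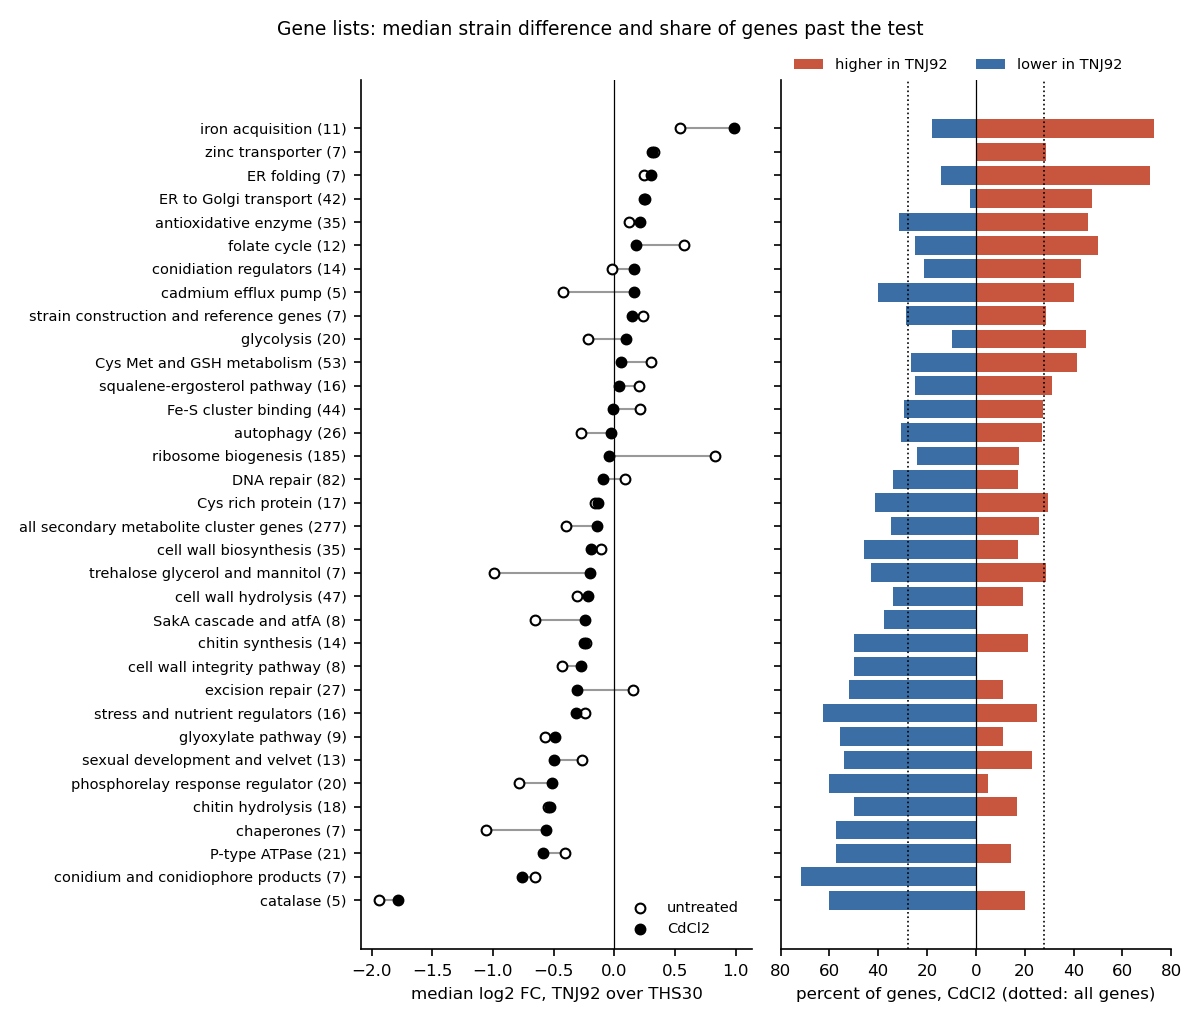
Gene lists with the number of genes tested in brackets. On the left, the median log2 fold change of TNJ92 over THS30 is drawn for untreated (open) and CdCl2-treated cultures (filled). On the right, bars give the percent of genes lower (blue) and higher (red) under CdCl2, and dotted lines mark the 27.8% of all genes in either direction. Iron acquisition lies highest with a median of 0.99 and catalases lowest with -1.78, and ribosome biogenesis moved from 0.83 to -0.05.

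Regulators of stress and nutrient use were called in 14 of 16 cases, with 10 lower (62.5%) and 4 higher (25.0%). Of all genes, 55.6% were called, 27.8% in each direction. The bZIP genes are of interest because AtfA belongs to this family. *atfB*, another gene of an ATF-type factor, had 10.7, 7.86 and 6.68 CPM in TNJ92 and 17, 16.6 and 22.1 CPM in THS30 (-1.14 ± 0.17, adjusted p = 3.29e-05). Its difference was larger without CdCl2 (-2.89, interaction 1.75 ± 0.25, adjusted p = 9.25e-05). *jlbA*, for a jun-like bZIP protein, had 925, 952 and 769 CPM in TNJ92 and 450.3, 429.8 and 340.4 CPM in THS30 (1.12 ± 0.12, adjusted p = 3.78e-07), and -0.17 ± 0.12 in untreated cultures. *cpcA*, for the bZIP factor of amino acid starvation, was lower (-0.82 ± 0.11) and *meaB* of nitrogen metabolism higher (0.67 ± 0.08). *xprG*, which controls extracellular proteases, had 29, 27 and 25.7 CPM against 93.2, 98.6 and 92.1 CPM (-1.80 ± 0.10, adjusted p = 7.34e-11). The count of higher regulators was 2 without THS30 replicate 1 or TNJ92 replicate 2.

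Developmental genes were checked as well, since *A. nidulans* hardly forms conidia in submerged culture. Of 14 regulators of conidiation, 6 were higher (42.9%) and 3 lower (21.4%), against 27.8% of all genes in each direction. *flbD*, for an early Myb-type activator, had 83.2, 108 and 108 CPM in TNJ92 and 32, 30.2 and 37.9 CPM in THS30 (1.58 ± 0.13, adjusted p = 1.74e-08), and *flbC* and *velB* were higher by 0.72 ± 0.14 and 0.75 ± 0.09. *stuA*, for an APSES-type factor of conidiophore formation, had 224, 251 and 218 CPM against 486, 476 and 428 CPM, and was lower in TNJ92 (adjusted p = 5.77e-08). *brlA*, for the central activator of conidiation, was at 4.58 to 5.57 CPM in TNJ92 and 5.41 to 7.57 CPM in THS30 (-0.37 ± 0.22, adjusted p = 0.169). *mat2*, a mating-type gene, had 2.53, 3.82 and 2.03 CPM against 25.0, 21.1 and 22.7 CPM (-3.04 ± 0.19, adjusted p = 6.45e-10), and *mat1* was lower by -3.76 ± 0.39 at under 1 CPM in TNJ92.

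Of 10 markers of conidia and conidiophores, 6 were lower in TNJ92 (*catA*, *conJ*, *wA*, *wetA*, *ivoB* and *yA*) and none was higher. Of all genes, 27.8% were called in each direction. *brlA*, *abaA* and *rodA* did not pass the test, and *dewA*, at up to 0.458 CPM, was not tested. The call of *ivoB* was lost without replicate 1 or 2 of either treated group. It was also lost without replicate 1 of untreated THS30 and with no filter on low counts. The summed level of the 10 markers under CdCl2 was 36.3 to 48.3 CPM in TNJ92 and 83.7 to 105 CPM in THS30. Untreated sums overlapped, at 34.8, 54.9 and 102 CPM in TNJ92 and 84.1, 89.5 and 111 CPM in THS30. Of these untreated TNJ92 sums, *rodA* made up 1.75, 19.6 and 57.1 CPM. *conJ*, a conidiation-associated gene, had 0.149, 0.687 and 0.901 CPM in TNJ92 and 12.4, 14.9 and 14.2 CPM in THS30 (-4.56 ± 0.49, adjusted p = 7.84e-06). The part of conidial RNA in the results for *catA*, *conJ* and the pigment gene *wA* was not tested, and fewer cells of a type and less RNA per cell cannot be told apart in such cultures.

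Of 277 genes in secondary metabolite clusters, 72 were higher (26.0%) and 96 lower (34.7%) in TNJ92, against 27.8% of all genes in either direction. Differences of at least 2-fold were found in 37 and 65 of them. The clusters differed from each other. In the cluster that contains *xptA*, 7 of 8 genes tested were higher, all by at least 2-fold, with a median of 2.01. It includes *CYP682C1* and the next gene, AN6786, with 32.6, 35.3 and 30.0 CPM in TNJ92 and 2.00, 2.44 and 1.98 CPM in THS30 (3.92 ± 0.16, adjusted p = 1.79e-12). In the cluster of AN2924, which encodes an enzyme similar to nonribosomal peptide synthetases, all 4 genes were lower, with a median of -4.61. AN2923 had 0.817, 0.611 and 0.526 CPM in TNJ92 and 38.3, 38.6 and 37.0 CPM in THS30 (-5.84 ± 0.19, adjusted p = 5.66e-14). All 4 genes tested of the monodictyphenone cluster were lower (median -1.80), but at low levels, such as 1.35 to 1.45 CPM against 4.60 to 5.65 CPM for its polyketide synthase gene *mdpG* (-1.89 ± 0.21). In the emericellamide cluster 4 of 5 genes were lower, at higher levels such as 34.4 to 41.5 CPM against 66.7 to 88.8 CPM for *easD* (-1.03 ± 0.26, adjusted p = 0.00688). Both genes tested of the penicillin cluster were higher and none of 14 sterigmatocystin genes was. Of 5 genes tested in the inp cluster, 2 were higher and 2 lower. The lower ones were AN3490 (-1.87 ± 0.38, adjusted p = 0.000693) and AN3491 (-1.33 ± 0.21, adjusted p = 6.20e-05), and *inpB* was higher with CdCl2 by 0.80 ± 0.30 and lower without it, a call that was lost without THS30 replicate 3 or TNJ92 replicate 2 and with DESeq2.

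Genes that differed by 2-fold or more were also found next to each other. In the gene order of the reference annotation, 8548 of the genes tested could be placed, and 1461 of these were called with a difference of at least 2-fold. Of them, 126 lay in 26 runs of 4 or more neighbouring tested genes with the same direction, 19 runs lower in TNJ92 and 7 higher. The longest had 8 genes, AN11156 to AN8957 (median -2.90) and AN9513 to AN3517 (median -2.93). A run of 7 genes, AN8642 to AN8636, includes *catA* (median -2.15), and its lowest member was AN8638 with 0.0743, 0.0763 and 0.150 CPM in TNJ92 and 13.6, 15 and 26.7 CPM in THS30. Among the higher runs, AN8133 to AN8137 had a median of 4.46, and AN6785 to AN6789, part of the *xptA* cluster, 2.33. The *xptA* run is followed by AN6790 and AN6791, genes of the same cluster, and then by *gfdB*, which was lower as given above. The runs were picked by their fold changes, so their length and medians are a description only.

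**Figure D5:**
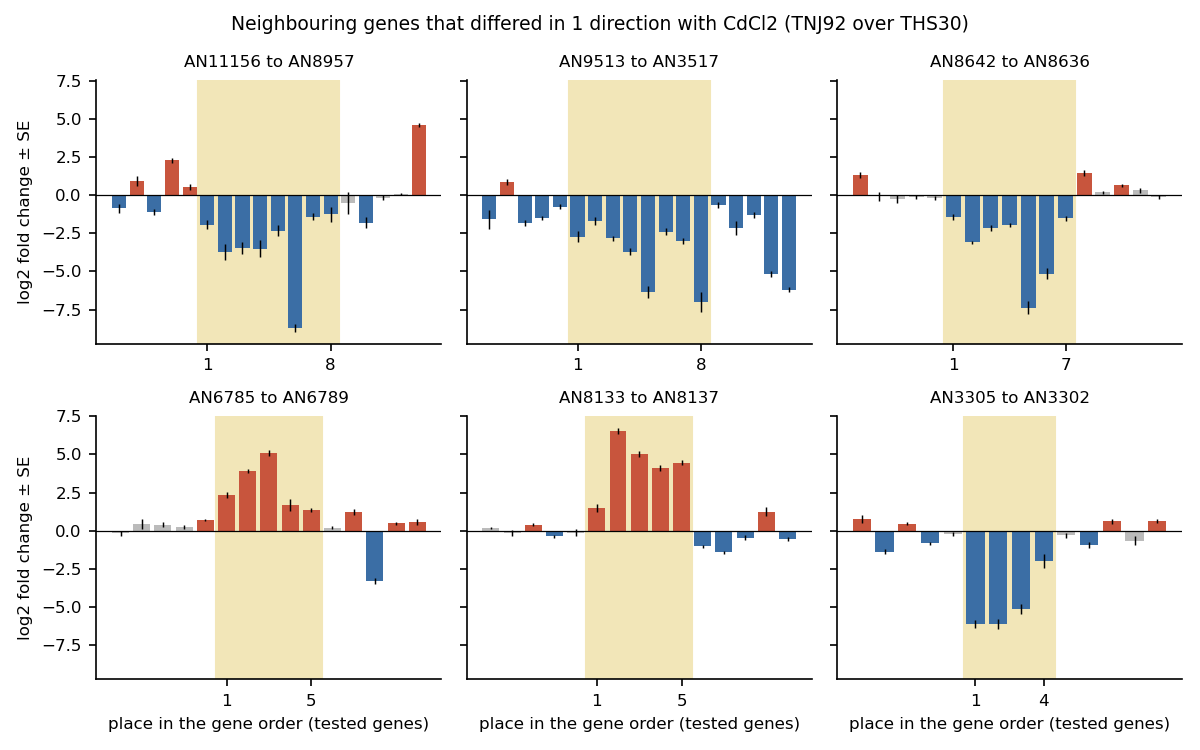
Log2 fold change of TNJ92 over THS30 under CdCl2, with its standard error, for 6 runs of neighbouring genes (shaded) and the tested genes next to them. The x axis is the place in the gene order and not a distance, red bars are higher, blue bars lower and grey bars did not pass the test. Members of a run share the direction but not the size, from -7.37 to -1.41 in the run with *catA* and from 1.48 to 6.56 in AN8133 to AN8137.

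Finally, the strain difference under CdCl2 was set against that without it, measured on separate libraries. Of the 914 genes lower by at least 2-fold under CdCl2, 810 (88.6%) were also called lower in untreated cultures, 5 were called higher and 99 did not pass. Of the 636 higher genes, 441 (69.3%) were called higher untreated, 25 lower and 170 did not pass. In untreated cultures, 32% of all genes tested were higher and 29.6% lower. The interaction was called for 2422 genes (26.7%). Among the 636 higher genes it was called for 258, and in 221 of these the difference was larger with CdCl2. Among the 914 lower genes it was called for 251, and in 155 of these the difference was smaller with CdCl2. Both sets were chosen by their size with CdCl2, which favours larger values with than without it. The median size of the strain difference over all genes tested was 0.38 with CdCl2 and 0.47 without it.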

How the data were processed

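According to the study, single reads of 75 bases were aligned by the authors with HISAT2 2.1.0. The program and strand setting of the counting used by the authors are not stated in the sources used here, so genes that overlap, or share sequence, cannot be told apart. The table deposited by the authors holds whole-number read counts and RPKM values for 10988 genes and 12 libraries. The deposited RPKM equals the count scaled by transcript length and column total, with a largest relative deviation of 6.3e-15. It was used only to compare levels between genes.

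Counts were filtered with filterByExpr of edgeR 4.0.16 (R 4.3.3) at a minimum count of 10 and scaled by TMM. A quasi-likelihood model was fitted over all 4 groups, and the strain difference was tested with CdCl2, without CdCl2 and as the interaction. Standard errors were derived from the log2 fold change and its F statistic. The common biological coefficient of variation was 0.109. The fit was tested on simulated counts first.

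Gene groups are those of the study, and further lists were written by hand. The members and lists were chosen with earlier results of these data known. Genes named are those of the largest changes (12 per direction, without overlap and with at least 10 CPM in the higher group), up to 3 per list and direction, all genes of 6 short lists, genes the study names and the 29 nearly silent genes. Not every one is reported here.

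Replicate numbers are shared by the strains. The deviations of same-numbered CdCl2 libraries correlated at 0.107, 0.0888 and 0.303. Replicates 1 and 2 correlated across the strains at 0.110 and 0.128. Replicate 3 of either strain was at -0.216 to -0.163 with replicates 1 and 2 of the other. The labels do not call the numbers pairs, so the main fit had no replicate term, and a fit with a replicate block is given below. Alternatives were RLE size factors, library totals, no filter on low counts, DESeq2 1.42.0, only the 6 CdCl2 libraries, a replicate block and each library left out in turn. Symbols and gene order came from the RefSeq annotation, and no sequence was used here.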

Additional observations from a re-analysis of the deposited data

Results flagged for a closer look

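Some of the genes named above or belonging to the gene lists were called in both conditions but in opposite directions, and for 12 of them the difference between the conditions was itself tested as an interaction and called. In these genes the strain difference depended on CdCl2, and values are the log2 fold change with CdCl2 minus that without it.

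The difference was positive for the following genes, which were higher in TNJ92 with CdCl2 and lower without it. It was 2.79 ± 0.60 for *inpB* of the inp cluster (adjusted p = 0.00256), 2.06 ± 0.46 for AN7880 (adjusted p = 0.00308) and 0.98 ± 0.16 for *gldB* (adjusted p = 0.000331). It was 0.96 ± 0.18 for AN12330 (adjusted p = 0.000917), 0.70 ± 0.16 for the P-type ATPase gene AN5743 (adjusted p = 0.00314) and 0.52 ± 0.13 for AN1247 (adjusted p = 0.00635). AN7880, with 1.37 to 3.12 CPM against 0.789 to 1.53 CPM under CdCl2, was the only 1 of these 12 genes whose treated values overlapped between the strains.

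The difference was negative for the others, which were lower in TNJ92 with CdCl2 and higher without it. It was -1.61 ± 0.41 for *ivoB* (adjusted p = 0.0125) and -1.61 ± 0.17 for AN6200 of ribosome biogenesis (adjusted p = 4.68e-06). It was -1.24 ± 0.16 for the sulfate assimilation gene AN7600 (adjusted p = 3.50e-05), which had 102, 109 and 108 CPM in TNJ92 and 158, 158 and 227 CPM in THS30 under CdCl2. It was -0.80 ± 0.11 for *tubC* (adjusted p = 7.69e-05), -0.52 ± 0.11 for *modA* (adjusted p = 0.0023) and -0.49 ± 0.12 for *purH* of the folate cycle (adjusted p = 0.00656). Beside *ivoB* and *inpB*, the call with CdCl2 was lost for AN7880 without THS30 replicate 2 or TNJ92 replicate 1, and for AN5743 without THS30 replicate 3 or TNJ92 replicate 1 or 2. It was lost for *purH* without THS30 replicate 2 or 3 or TNJ92 replicate 1 or 2, and for AN1247 without replicate 1 or 2 of either treated group or without replicate 2 of either untreated group. The 12 genes do not share a list, and no cause was tested.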

How the results depend on the processing

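Under RLE size factors, library totals, no filter on low counts, DESeq2, the 6 CdCl2 libraries alone and the replicate block, the counts of genes higher and lower in TNJ92, those of at least 2-fold and that of the interaction stayed within 1.5 times the reported ones (the interaction has no value from the 6 CdCl2 libraries). When each library was left out in turn, 2222 to 2604 genes were higher, 2239 to 2603 lower, 604 to 662 higher and 873 to 951 lower by at least 2-fold, and 1898 to 2585 had an interaction. With the replicate block, 2693 genes were higher and 2668 lower, and 2851 had an interaction. That fit kept 5031 of the 5040 reported calls in the same direction. The correlation of same-numbered libraries was above 0.1 for 2 of 3 numbers. Library totals moved the median of all genes to 0.04, and 54% of calls were then higher. With these totals *benA* passed the test. No reported fold change changed its sign in any of these settings.

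At 3 libraries per group, small differences are at the limit of detection, and the smallest called log2 fold change was 0.18 in size. Genes in the lowest of 5 classes by level have a median standard error of 0.283. Each genotype is 1 strain.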
